A study of Homo sapiens with 4 samples.

Results

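The deadenylase genes examined here were CNOT1, CNOT2, CNOT3, CNOT6, CNOT6L, CNOT7, CNOT8, PAN2, PAN3 and PARN, which encode the CCR4-NOT complex core and nucleases, the PAN2-PAN3 complex and the poly(A)-specific ribonuclease. A peak was counted for one of these 10 genes when it was listed under the gene's NCBI Gene ID, and each position was counted once. This gave 7 of the 9107 HNRNPC peaks and 71 of the 63507 PABPC4 peaks, or 78 of 72614 peaks in all, which fell in 7 of the 10 genes. All 78 peaks lay on the strand of their gene, 0 of them were listed under a second gene ID, and 0 had their centre in another gene of that strand.

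Deadenylases remove the poly(A) tail from the 3′ end of mRNA, which for most mRNAs precedes decapping and decay. In CCR4-NOT, CNOT1 is the scaffold on which the other subunits assemble, CNOT2 and CNOT3 bind its C-terminal part, CNOT6 and CNOT6L are alternative nucleases of the CCR4 type, and CNOT7 and CNOT8 are alternative nucleases of the CAF1 type. PAN2 is the nuclease and PAN3 the adaptor of a further complex that is recruited through the cytoplasmic poly(A)-binding protein, and PARN is a nuclease that also trims the tails of non-coding RNAs. The values below concern the RNA of these genes as bound by HNRNPC and PABPC4, and not the activity of the enzymes.

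The peaks came from cross-linking and immunoprecipitation (CLIP) in MDA-MB-231, an established human breast cancer cell line grown without any treatment other than ultraviolet light (400 mJ per square centimetre at 254 nm). The series held 2 samples for HNRNPC, a protein of the nucleus that binds U-rich RNA and has been linked to splicing and to antisense Alu elements in introns, and 2 for PABPC4, a poly(A)-binding protein, mapped by PAPERCLIP, a form of CLIP used to find the 3′ ends of mRNAs. The tags of both samples were pooled before peaks were called, which left a single list per protein. Values therefore have no spread between samples, no difference was tested, and the intervals (95%, Wilson for shares and exact Poisson for heights) cover counting error only. Peak height counts unique tags of the pool at the peak's summit, is not scaled to depth, and was never set against heights of the other list. The RNA level of these genes was not analysed here, so a height mixes the amount of RNA with how much of it was bound.

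PABPC4 peaks were listed for 7 of the 10 genes (70.0%, 39.7 to 89.2%), against 59.2% of all 20056 protein-coding genes. PABPC4 peaks in the 3′ UTR were listed for 6 of the 10 (60%, 31.3 to 83.2%), against 48.8% of protein-coding genes, and the gene with PABPC4 peaks outside the 3′ UTR only was PAN3. HNRNPC peaks were listed for 3 of the 10, CNOT1, CNOT2 and CNOT8 (30.0%, 10.8 to 60.3%), against 19.0% of protein-coding genes. With 10 genes, all 3 intervals held the share over all genes. CNOT3, PAN2 and PARN had an entry in neither list and count here as genes without a peak. Whether the lists are complete around them was not tested, and any gap would lower these shares and those over all genes.

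Of the 71 PABPC4 peaks, 15 lay in 3′ UTRs (21.1%, 13.2 to 32.0%), against 29.8% of the whole list. Introns held 55 (77.5%, 66.5 to 85.6%), against 60.2% of the list. A non-coding exon of CNOT2 held 1 peak of 66 tags. With a 3′ UTR of any protein-coding transcript taking precedence, 0 were assigned to coding sequence or 5′ UTRs, which allows a share of up to 4.23%, against 5.47% of the list. The 164-tag peak of CNOT2, counted as 3′ UTR by this rule, lay before the MANE stop codon but for its last base (MANE is explained below). For a count of 0, the limit given here and below is 3 counts of the total, not the Wilson limit. PAN3 alone held 24 of the 55 intron peaks and had no peak elsewhere, so this 1 gene raised the intron share and lowered the 3′ UTR share. The intervals do not allow for peaks that share a gene, and the excess in introns is not read as a trait of the group.

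**Figure D1:**
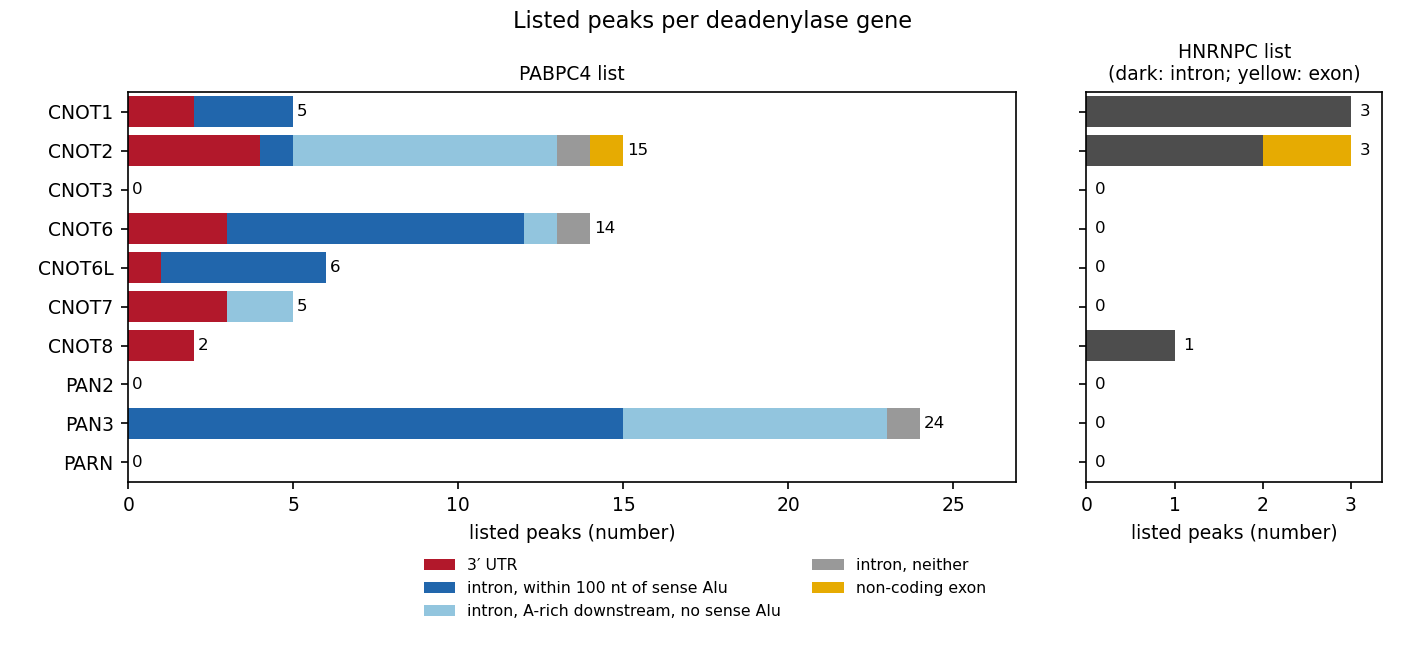
Number of listed peaks (horizontal axis) in each of the 10 deadenylase genes, for the PABPC4 list at left and the HNRNPC list at right, with colours for the annotated place of the peak. PAN3 had the most PABPC4 peaks, 24, all in introns, and CNOT3, PAN2 and PARN had none in either list.

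Per length, the PABPC4 peaks of CNOT7 were the densest among these genes, at 2.28 per 10 kb of gene (0.740 to 5.32). CNOT6 followed with 1.67 (0.913 to 2.80), PAN3 with 1.53 (0.980 to 2.28), CNOT2 with 1.34 (0.750 to 2.21) and CNOT8 with 1.08 (0.131 to 3.90). CNOT6L with 0.561 (0.206 to 1.22) and CNOT1 with 0.455 (0.148 to 1.06) were lowest. The median over the 11865 protein-coding genes with a PABPC4 peak was 1.03 per 10 kb. The exact Poisson intervals of all neighbours in this order overlapped, so the order is not resolved by counting error alone.

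The scaffold gene CNOT1 (chr16:58519951-58629885, minus strand) had a PABPC4 peak at the annotated end of its mRNA. Distances here run from the last coding base to the 3′ end of a peak, and the reference end is that of the MANE transcript, the one transcript chosen per gene by the annotation projects. The peak at 1008 nt was 40 tags high (28.6 to 54.5), ended 2 nt before the MANE end and held the poly(A) signal AUUAAA. A second peak at 269 nt was 18 tags high (10.7 to 28.4), ended 3 nt from the end of another annotated protein-coding transcript and held no signal. The distal peak had 69.0% of the gene's summed 3′ UTR peak height (56.2 to 79.4%).

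CNOT2 (chr12:70243002-70354993, plus strand), whose product pairs with CNOT3 on the scaffold, had 4 PABPC4 peaks counted as 3′ UTR, the most among these genes. The tallest reached 164 tags (140 to 191) and ended at the first base of the stop codon, and the next reached 124 tags (103 to 148) at 1082 nt, 1 nt from the MANE end. The other two, at 240 and 405 nt, had 48 and 11 tags. The 164-tag peak was 69 nt wide, and all but its last base lay before the MANE stop codon. Its centre lay in the 3′ UTR of another protein-coding transcript of CNOT2, so it was counted as 3′ UTR. It was followed by a run of 25 A that starts with the second base of the stop codon UAA and runs into the 3′ UTR. Within 50 nt of that peak 9 annotated transcripts ended, 4 of them protein-coding and 0 the MANE transcript, and no poly(A) signal lay in the last 40 nt of the peak. The distal peak held AAUAAA 24 nt before its end and had no A-rich stretch downstream. Sequence was called A-rich where the 50 nt downstream of a peak held a run of at least 6 A, or any 10 nt with at least 7 A. With the last 30 nt of the peak searched as well, the distal peak did have such a stretch. Whether priming on the genomic A run had a part in the 164-tag peak was not tested. The shares of the gene's 3′ UTR height were 47.3% for the stop-codon peak (42.1 to 52.5%) and 35.7% for the distal peak (30.9 to 40.9%).

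The 30 bases that show these ends are given 5′ to 3′ on the strand of the gene, in hg38, with the poly(A) signal in capitals. In the CNOT2 stop-codon line the capitals mark the A run instead, and the lower-case bases are the end of the peak. The signal lines belong to the tallest 3′ UTR peak of CNOT1, CNOT6L and CNOT8, to the distal peak of CNOT2 and to the most distal peak of CNOT6. The stop-codon line was chosen after its values were seen.
CNOT1, 40 tags, chr16:58519953-58519982, minus strand: acuguagcuaaccAUUAAAgucaugacaca
CNOT2 at the stop codon, 164 tags, chr12:70353909-70353938, plus strand: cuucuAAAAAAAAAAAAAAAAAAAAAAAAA
CNOT2 distal, 124 tags, chr12:70354965-70354994, plus strand: uuuguAAUAAAguagaaaagcucuccucac
CNOT6, 14 tags, chr5:180577938-180577967, plus strand: uagccaaccAAUAAAuucaguaucuguuuc
CNOT6L, 76 tags, chr4:77718058-77718087, minus strand: AAUAAAaaacuuuuuuaauaguuaaaugua
CNOT8, 99 tags, chr5:154876763-154876792, plus strand: aaAAUAAAgauuucuuuuuaaccacuggca

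The CCR4-type nuclease genes had long 3′ UTRs, and none of their peaks lay at the MANE end. CNOT6 (chr5:180494379-180578358, plus strand) had peaks of 28 tags (18.6 to 40.5) at 486 nt, 50 tags (37.1 to 65.9) at 2585 nt and 14 tags (7.65 to 23.5) at 3770 nt. The 50-tag peak had an A-rich stretch downstream and no signal. The 14-tag peak held AAUAAA 20 nt before its end, with no A-rich stretch downstream, and lay 391 nt before the MANE end. With its last 30 nt searched as well, the 14-tag peak did have an A-rich stretch. CNOT6L (chr4:77713387-77819615, minus strand) had a single 3′ UTR peak of 76 tags (59.9 to 95.1) at 2382 nt. That peak held AAUAAA 35 nt before its end, had an A-rich stretch downstream, and ended 31 nt before the end of an annotated protein-coding transcript and 4665 nt before the MANE end.

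The proximal peak of CNOT6 and the peak of CNOT6L both touched the one stretch that aligned between the 3′ UTRs of these paralogues. The stretch was 106 nt long with 79 identical positions (74.5%), at 383 to 486 nt after the stop codon in CNOT6 and 2244 to 2345 nt in CNOT6L. The 28-tag CNOT6 peak contained the longest run of identical bases and ended 21 nt after it. The 76-tag CNOT6L peak was 48 nt wide and ended 58 nt after the run, so the run lay upstream of that peak and outside it. The CNOT6L peak overlapped the stretch by its 5′ part only. This comparison was chosen after the values were seen. For the CAF1-type pair, CNOT7 and CNOT8, 0 stretches aligned. The 30 bases around the longest identical run lay inside the peak in CNOT6 and wholly upstream of the peak in CNOT6L. With that run of 16 bases in capitals, they are as follows.
CNOT6, chr5:180574640-180574669, plus strand: uuagccuUUAUGAUUGUAUAUGAuccacag
CNOT6L, chr4:77718103-77718132, minus strand: aguucacUUAUGAUUGUAUAUGAaccacag

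Both CAF1-type nuclease genes had a tall PABPC4 peak with AAUAAA, in CNOT8 at the MANE end and in CNOT7 far before it. CNOT8 (chr5:154857553-154876792, plus strand) had 99 tags (80.5 to 121) at 1356 nt, exactly at the MANE end, and 19 tags (11.4 to 29.7) at 1180 nt without a signal. The peak at the end had 83.9% of the summed 3′ UTR height (76.2 to 89.4%). CNOT7 had 59 tags (44.9 to 76.1) at 124 nt, 100 tags (81.4 to 122) at 195 nt and 80 tags (63.4 to 99.6) at 1490 nt, with AAUAAA in the peaks at 195 and 1490 nt. The peaks at 124 and 195 nt lay 31 and 40 nt on either side of the end of 1 annotated protein-coding transcript. A run of 11 A lay in the last 30 nt of the 100-tag peak or across its end. The 50 nt downstream of that peak were not A-rich on their own. The peak at 1490 nt lay 4267 nt before the MANE end and 1335 nt from any annotated end, and it had AAUAAA with no A-rich stretch.

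**Figure D2:**
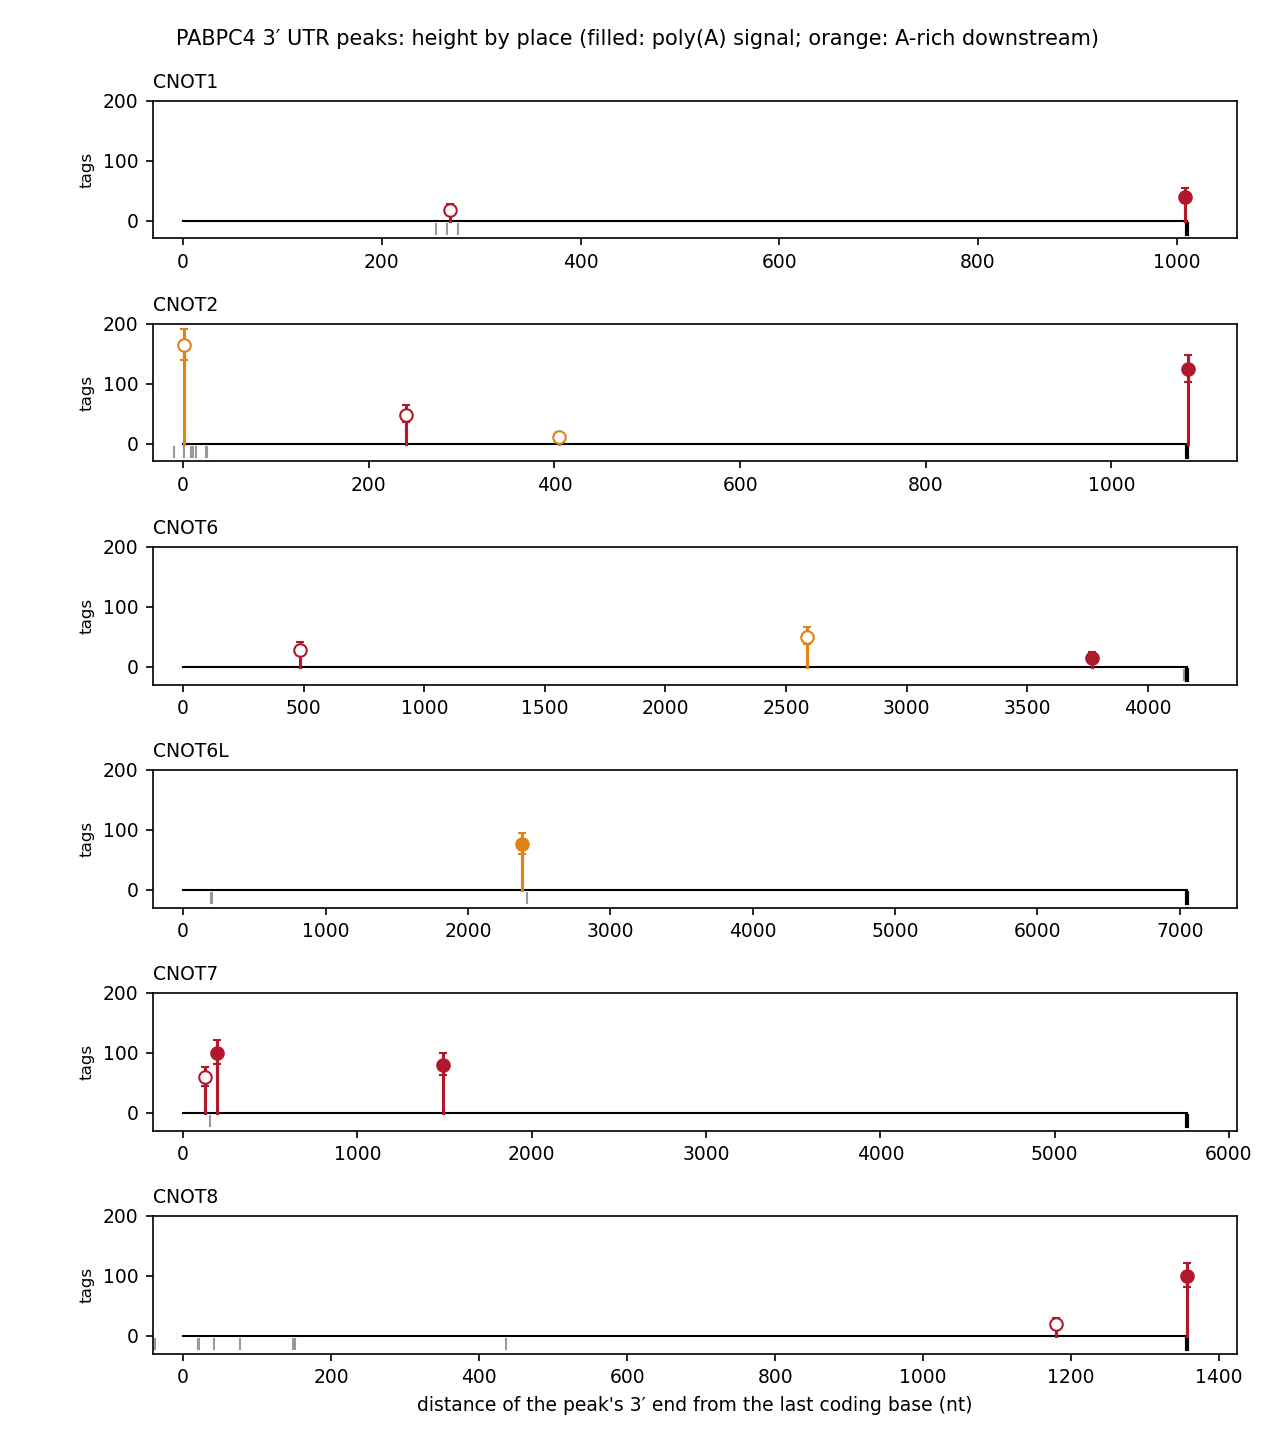
PABPC4 peaks in the 3′ UTRs of 6 deadenylase genes, with the distance of the peak's 3′ end from the last coding base (nt, horizontal axis, scaled per gene) and the peak height (pooled tags, vertical axis; bars are exact Poisson 95% intervals). Filled points hold a poly(A) signal, orange points have an A-rich stretch downstream, grey ticks are annotated transcript ends and the thick black tick is the MANE end, which peaks of CNOT1, CNOT2 and CNOT8 reach.

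Over the 15 peaks in 3′ UTRs, a poly(A) signal lay in the last 40 nt of 7 (46.7%, 24.8 to 69.9%), against 47.1% of all PABPC4 3′ UTR peaks. The signal was AAUAAA in 6 and AUUAAA in 1, and it started 16 to 35 nt before the peak's end. An annotated transcript end lay within 50 nt of 8 (53.3%, 30.1 to 75.2%), against 54.8% of the list. Within 25 nt it was 5 of the 15 (33.3%, 15.2 to 58.3%), against 48.2% of the list. An A-rich stretch lay downstream of 4 (26.7%, 10.9 to 52.0%), against 31.9% of the list. The intervals of these shares held the values of the list, and nothing particular to the deadenylase genes was read from them. The 3 peaks with no signal, annotated end or A-rich stretch in the 50 nt downstream were the 48-tag peak of CNOT2, the 28-tag peak of CNOT6 and the 19-tag peak of CNOT8. In wider windows, the CNOT8 peak had an A-rich stretch once its last 30 nt were included, and the CNOT2 peak had one within 100 nt downstream.

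The MANE end was reached within 50 nt by 3 of the 15 peaks, in CNOT1, CNOT2 and CNOT8. These were the genes with the shorter MANE 3′ UTRs among those with peaks, at 1007, 1078 and 1353 nt. CNOT6, CNOT6L and CNOT7, whose MANE 3′ UTRs measured 4158, 7044 and 5754 nt, had their peaks 391 to 5633 nt before the MANE end. PAN3, with 2813 nt, had no 3′ UTR peak. The tallest peak of each gene held 56.9% of the 3′ UTR peak height summed over the 6 genes, 529 of 930 tags, and 62.6% without CNOT2. A gene's tallest peak holds its largest share by definition, and in CNOT6L, with a single 3′ UTR peak, that share is 100%. No value for other genes was set beside this share. The 7 peaks with a signal ranged from 14 to 124 tags with a median of 80.0, and the 8 without from 11 to 164 tags with a median of 38.0. These ranges overlapped.

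In introns, the PABPC4 peaks lay mostly beside genomic A-rich sequence. An A-rich stretch followed 44 of the 55 within 50 nt (80.0%, 67.6 to 88.4%), against 71.2% of all PABPC4 intron peaks. An Alu element in sense orientation lay within 100 nt of 33 (60%, 46.8 to 71.9%), against 59.7% of the list. Alu elements are short repeats derived from 7SL RNA that carry A-rich sequence in the middle and at the 3′ end of the sense strand, and they were found here by similarity to 7SL RNA. Antisense Alu was near 0 of the 55, which allows up to 5.45%, against 2.15% of the list. Of the 33 peaks at sense Alu, 25 had the A-rich stretch within 50 nt and 32 within 100 nt, and 19 of the other 22 had it within 50 nt. A poly(A) signal without an A-rich stretch, which 1.99% of all PABPC4 intron peaks had, was found in 0 of 55. The 2 intron peaks with a signal, both in CNOT2, were also followed by an A-rich stretch. Whether priming on A-rich introns had a part in these peaks was not tested.

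The kind of intron peak was not spread evenly over the genes, which was not tested. In CNOT1 3 of 3, in CNOT6 9 of 11 and in CNOT6L 5 of 5 lay near sense Alu. In CNOT2 it was 1 of 10, while 8 of the 10 had an A-rich stretch with no Alu. In CNOT7 it was 0 of 2, both with an A-rich stretch. CNOT8 had no intron peak.

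PAN3 (chr13:28138506-28295335, plus strand) had the most intron peaks among these genes, at least as many as 98.1% of protein-coding genes that had any. Its 24 peaks ranged from 9 to 183 tags with a median of 40 and were spread over introns 1, 4, 5, 6, 7, 9 and 14. Sense Alu lay near 15 of them, and an A-rich stretch followed 20. The 183-tag peak in intron 5 (157 to 212) was at least as tall as 99.4% of all PABPC4 intron peaks. The intron peaks of PAN3 summed to 1131 tags, or 50% of the 2264 tags summed over the intron peaks of all these genes. Without PAN3, the share with an A-rich stretch was 77.4% and the share near sense Alu was 58.1%. Among the 943 protein-coding genes with at least 10 PABPC4 intron peaks, 71 (7.53%) had no 3′ UTR peak, and among the 171 with at least as many as PAN3, 8 had none.

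**Figure D3:**
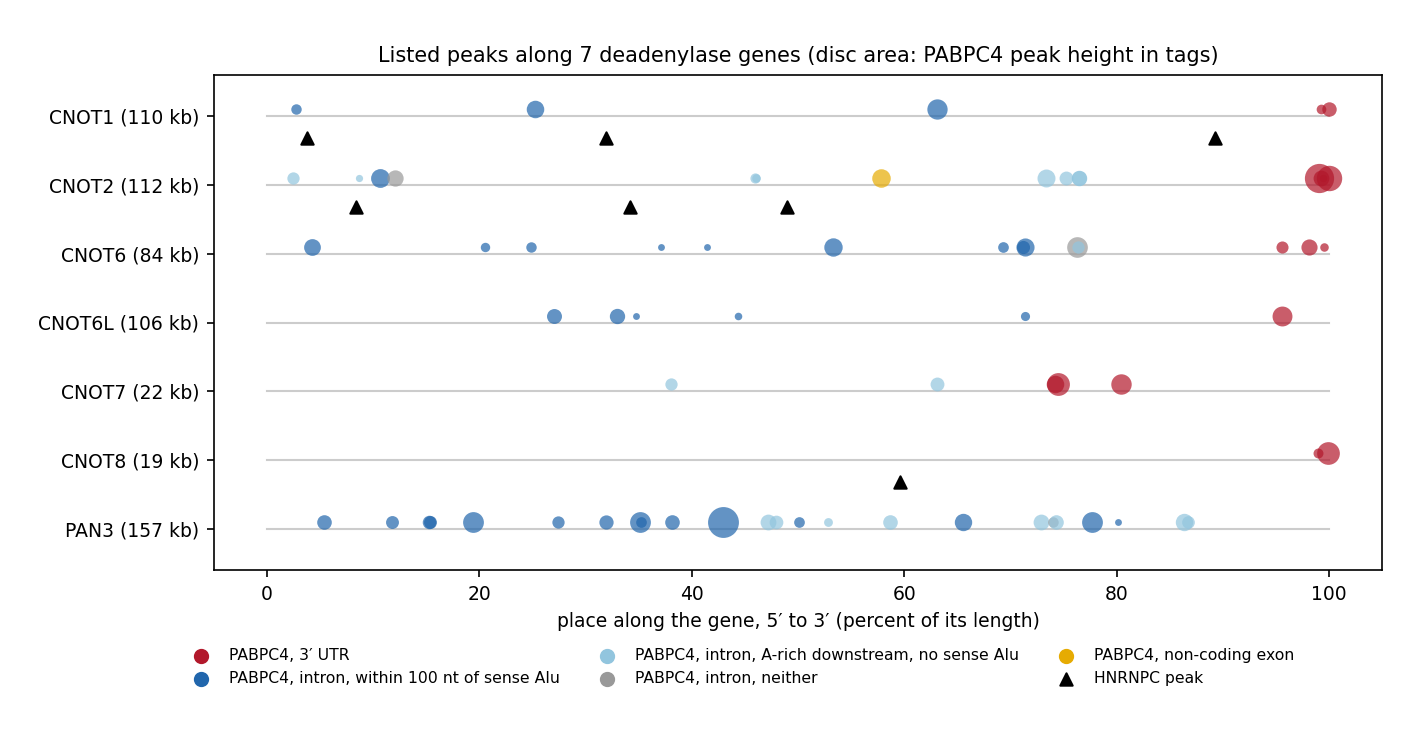
Place of each listed peak along 7 deadenylase genes, from the 5′ end to the 3′ end (percent of gene length, horizontal axis), with PABPC4 peaks as discs whose area is the height in tags and HNRNPC peaks as black triangles below the line of their gene. The 3′ UTR discs cluster at the gene end except in CNOT7, and the 183-tag disc of PAN3 lies in an intron near the middle of the gene.

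The heights were near those of the whole list. The 15 PABPC4 3′ UTR peaks had a median of 50 tags (11 to 164), against 45.0 for the list, and the 55 intron peaks a median of 37.0 tags (9 to 183), against 35. The 164-tag peak of CNOT2 was at least as tall as 87.6% of PABPC4 3′ UTR peaks. Intron peaks near sense Alu had a median of 35 tags, and the other 22 had 37.0.

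**Figure D4:**
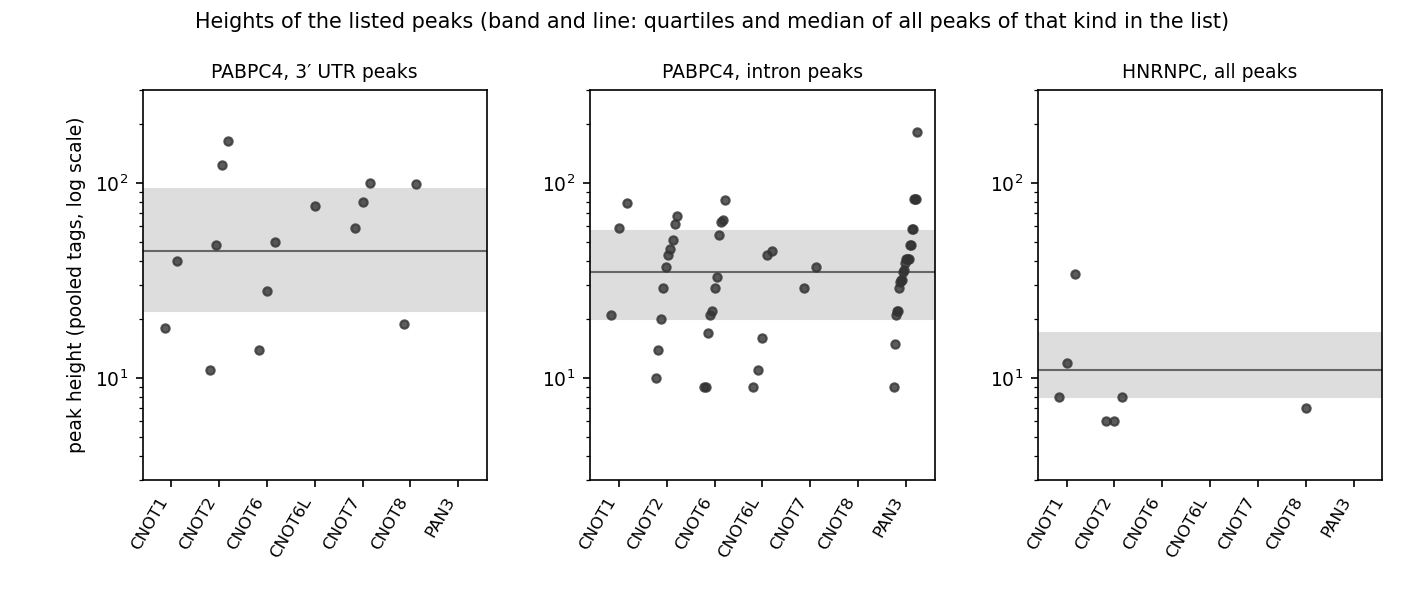
Height of each listed peak (pooled tags, vertical log axis) by gene, for PABPC4 3′ UTR peaks, PABPC4 intron peaks and HNRNPC peaks, with the quartiles (grey band) and the median (line) of all peaks of that kind. Most points lie in or near the bands. Several PABPC4 points lie above them, the 183-tag intron peak of PAN3 farthest, and the 34-tag HNRNPC peak of CNOT1 lies above its band.

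HNRNPC peaks were listed for CNOT1 with 3, CNOT2 with 3 and CNOT8 with 1, where the median protein-coding gene with any had 1. The 7 peaks had a median of 8 tags (6 to 34), against 11 for the list, and the authors' p-value was above 0.05 for 3 of them (42.9%, 15.8 to 75%), against 5.52% of the list. It was at most 0.001 for 3 (42.9%, 15.8 to 75%), against 71.4% of the list. Introns held 6 (85.7%, 48.7 to 97.4%), against 85.5% of the list, and the seventh lay in a non-coding exon of CNOT2. In 3′ UTRs there were 0 of the 7, which allows up to 42.9%, against 4.97% of the list. Antisense Alu, the orientation in which the A-rich parts of the repeat are read as U runs, lay within 100 nt of 6 of the 7 (85.7%, 48.7 to 97.4%), against 36.9% of the HNRNPC list. The exception was the tallest peak. The 3 peaks with a p-value above 0.05 were all near antisense Alu. Of the peaks near antisense Alu, only the 12-tag peak of CNOT1 reached the list median of 11 tags.

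CNOT1 had the tallest HNRNPC peak among these genes, with 34 tags (23.5 to 47.5) in intron 42 at chr16:58531726-58531840, starting 118 nt after exon 42. It was at least as tall as 92.4% of the HNRNPC list. The other 2 peaks of CNOT1 lay in intron 1 (12 tags, 6.20 to 21.0) and intron 2 (8 tags, 3.45 to 15.8). CNOT2 had 8 tags (3.45 to 15.8) in intron 1, 6 tags (2.20 to 13.1) in intron 2 and 6 tags (2.20 to 13.1) in a non-coding exon at chr12:70297759-70297838. CNOT8 had 7 tags (2.81 to 14.4) in intron 3, at chr5:154868979-154869074, with no U run of 5 within the peak or the 50 nt before it. At these heights the intervals of all peaks but the 34-tag peak overlapped.

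Where these peaks had a U run, it lay upstream and not inside. UUUUU was inside 0 of the 7, which allows up to 42.9%, against 13.3% of the list. With the 50 nt upstream included it was present for 5 of the 7 (71.4%, 35.9 to 91.8%), against 39.7% of the list. The peaks with no such run were the 34-tag peak of CNOT1 and the peak of CNOT8. The limit and the interval both held the value of the list, and nothing particular to these genes was read from them. The longest runs measured 20 U before the 12-tag peak and 12 U before the 8-tag peak of CNOT1, and 9 U before the exon peak of CNOT2. GUGUCA lay at the 3′ end of 2 of the 7, the 34-tag and 12-tag peaks of CNOT1 (28.6%, 8.22 to 64.1%), against 36.2% of the list. It was searched on the strand of the peak in its last 15 nt and the 10 nt after it, and whether it came from the library construction was not tested.

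The tallest HNRNPC peak is shown with 10 nt added on each side and GUGUCA in capitals, and 30 bases upstream of the 3 peaks with the longest U runs with that run in capitals, since a U run in or before the peak is what 5 of the 7 peaks shared (hg38, strand of the gene).
CNOT1, 34 tags, chr16:58531716-58531850, minus strand: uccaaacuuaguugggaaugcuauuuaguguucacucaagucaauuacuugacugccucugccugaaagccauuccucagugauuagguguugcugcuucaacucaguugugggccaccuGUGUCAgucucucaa
CNOT1, 12 tags, chr16:58625854-58625883, minus strand: caauagUUUUUUUUUUUUUUUUUUUUgaga
CNOT1, 8 tags, chr16:58594791-58594820, minus strand: uuuuucUUUUUUUUUUUUaaugagacagua
CNOT2 exon, 6 tags, chr12:70297729-70297758, plus strand: uaauaaUUUUUUUUUguuuucauuuuugag

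Overlap with a PABPC4 peak on the same strand was found for 0 of the 7 HNRNPC peaks, which allows up to 42.9%, against 0.944% of the HNRNPC list, so 7 peaks do not tell these genes from the rest. The nearest PABPC4 peak lay 283 to 13082 nt away, with a median of 7344 nt. The closest pair was in intron 1 of CNOT2, where the 8-tag HNRNPC peak lay 283 nt before a 10-tag PABPC4 peak. CNOT1, CNOT2 and CNOT8 had peaks of both proteins, in CNOT8 with HNRNPC in an intron and PABPC4 in the 3′ UTR only.

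The genes without entries were CNOT3, the partner of CNOT2, PAN2, the nuclease bound by PAN3, and PARN. No peak of either list lay within them on either strand. Around PARN no PABPC4 peak was listed over 2793 kb that held 23 protein-coding genes, and around CNOT3 over 1150 kb that held 44. Around PAN2 the stretch was 26.9 kb with 2 protein-coding genes. Stretches of 1 Mb or more without a PABPC4 peak numbered 434 over the genome, and 14 of them held at least 20 protein-coding genes. For HNRNPC the stretches without a peak measured 4670 kb with 27 protein-coding genes around PARN, 2252 kb with 73 around CNOT3 and 289 kb with 13 around PAN2. PAN2 differed from the others in that a PABPC4 peak lay 1457 nt from it. The missing entries are no measure of binding to these 3 RNAs.

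PABPC4 and HNRNPC peaks were also counted in 32 other genes of the pathway. Of the 4 other CCR4-NOT subunits listed (CNOT4, CNOT9, CNOT10 and CNOT11), all 4 had a PABPC4 3′ UTR peak and 1, CNOT10, an HNRNPC peak. Of 6 other deadenylases, 5 had a PABPC4 peak, 3 a 3′ UTR peak and 0 an HNRNPC peak. Of 13 factors that recruit deadenylases to mRNAs, 10 had a PABPC4 3′ UTR peak and 6 an HNRNPC peak, among them TNRC6A and TNRC6B, adaptors of microRNA silencing, with 4 HNRNPC peaks each. All 9 genes of decapping and 5′ to 3′ decay had a PABPC4 3′ UTR peak, and 2 had an HNRNPC peak. Over the 32 genes, 26 had a PABPC4 3′ UTR peak, 28 any PABPC4 peak and 9 an HNRNPC peak, against the 48.8%, 59.2% and 19.0% of all protein-coding genes given above. The lists hold genes of different length and expression, which were not matched to the deadenylase genes.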

How the data were processed

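The deposited signal was the height of each peak, the pooled unique tags at its summit, which the authors did not scale to depth. They collapsed HNRNPC reads by molecular identifiers, extracted the identifiers (UMI-tools), trimmed the reads (cutadapt) and aligned them with BWA 0.7.17 to hg38. The CLIP Tool Kit served to remove duplicates and, with its valley-seeking caller and a correction for multiple testing, to call peaks. Processing of the PABPC4 tags is not given separately in the sources used here. The samples of a protein were pooled, and library depth was not analysed here. The labels and methods name irCLIP for HNRNPC, the deposited list HITS-CLIP.

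Gene IDs were matched to symbols by the RefSeq gene table (GRCh38.p14). Peak centres were assigned with GENCODE 44 on their own strand, and 3′ UTR took precedence over coding sequence, 5′ UTR, non-coding exon and intron. Alu was found by blastn 2.17.0 (E-value at most 1e-05) against 7SL RNA with 100 nt added on each side. Sequences were read from hg38 with pysam 0.24.0. Sequence searches and intervals were tested on simulated data. The members, gene lists, rules and alternatives were chosen with earlier results of these data known. Peaks named were the tallest HNRNPC peak of each gene, HNRNPC exon peaks, the tallest and most distal PABPC4 3′ UTR peaks, and others as stated. The sequences of the remaining HNRNPC windows and of the intron peaks are not reported here.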

Additional observations from a re-analysis of the deposited data

How the results depend on the processing

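No paired analysis was possible because each list pools both samples of its protein. Of 48 alternative settings, 35 left their value within 1.5 times the count or within its counting interval, and 13 did not. The 7 HNRNPC peaks fell to 3 at a p-value of at most 0.001 and to 2 at or above the median height of the list, and 100% of these lay in introns under either limit (85.7% with all peaks). At or above the median height, 1 gene in place of 3 had an HNRNPC peak, CNOT1, and the PABPC4 peaks numbered 37 in place of 71. The share of PABPC4 intron peaks with an A-rich stretch, 80.0%, was 67.3% with 6 A in a row only, 63.6% within 30 nt and 96.4% within 100 nt, the last chosen after seeing the data. UUUUU, inside 0% of HNRNPC peaks, was near 71.4% with the 50 nt upstream. The tallest peaks' share of the 3′ UTR height, 56.9%, was 62.2% without peaks before an A-rich stretch and 62.6% without CNOT2, chosen after seeing the data. With PABPC4 peaks of any kind in the genes with a 3′ UTR peak, the tallest peaks, some of them in introns, held 28.2% (600 of 2129 tags). The share of 3′ UTR peaks at an annotated end, 53.3%, was 33.3% within 25 nt. Each difference follows from the peaks that a setting keeps or the window it searches. Pooled lists, 7 HNRNPC peaks and low heights limit the precision.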

Other observations

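Values outside the comparisons above concern single peaks. The PABPC4 peak in the non-coding exon of CNOT2 had 66 tags (51.0 to 84.0) with no poly(A) signal and no A-rich stretch within 100 nt downstream. The tallest PABPC4 intron peak of CNOT6, 82 tags (65.2 to 102) in intron 4, was 17 nt wide and had neither a sense Alu nor an A-rich stretch within 50 nt. In CNOT2, a 51-tag PABPC4 peak (38.0 to 67.1) in intron 1 likewise had neither. In PAN3 a 21-tag peak (13 to 32.1) in intron 6 was the third intron peak of this kind. An A-rich stretch within 100 nt followed the peaks of CNOT6 and PAN3, and did not follow that of CNOT2. TOE1, a deadenylase of small nuclear RNAs, had a single PABPC4 peak, of 166 tags in its 3′ UTR, and ZFP36L1, which recruits CCR4-NOT to AU-rich mRNAs, had the tallest 3′ UTR peak of the pathway lists, 1733 tags.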
